A study of Mus musculus with 6 samples.

Results

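The Egr (early growth response) transcription factors and their Nab (NGFI-A binding) corepressors were followed in mouse hippocampus with and without a mutation of Ptchd1, an X-linked gene for a membrane protein with a patched domain. The members were the 4 Egr genes Egr1, Egr2, Egr3 and Egr4 and the 2 Nab genes Nab1 and Nab2, chosen by gene name, 6 of 25785 gene names in the deposited expression table. For each gene the transcript row with the highest mean over the 6 libraries was kept. The family was selected on the mutant against wild-type contrast, in which Egr1 was already known to differ, so the values of that contrast are given as a description. Total RNA came from whole hippocampus at postnatal day 30 of C57B1/6J mice (the strain as the labels spell it), with 3 libraries from wild-type mice and 3 from mice labelled PTCHD1 mutant. The labels name no treatment and do not describe the mutant allele, and they do not say whether each library came from its own animal, so the spread between libraries may be technical.

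Egr proteins bind GC-rich DNA through zinc fingers, and their genes belong to the immediate early genes that neurons switch on within minutes of synaptic activity through the ERK, SRF and CREB pathways. In hippocampus Egr1 is known for its part in long-lasting synaptic change and memory. Nab1 and Nab2 carry no DNA-binding domain and dock on an inhibitory domain that Egr1, Egr2 and Egr3 carry, where they recruit repressive complexes such as NuRD. Egr4 is not bound by the Nab proteins, and Egr proteins are known to switch on Nab2, which closes a feedback loop.

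Promoter sequence is shown for 3 genes whose RefSeq promoters (GRCm38.p6) hold a match to one of the motifs searched. In total 4 of the 6 members (Egr2, Egr4, Nab1 and Nab2) were matched to this table by symbol. The searched letters were GCGNGGGCG for an Egr site, the CArG box of SRF, TGACGTCA for the cyclic AMP response element of CREB and TGACG for the core of that element, which every full element also contains. Both strands were read over 300 bases around each start. Capitals mark the matches.
Egr2 upstream, chr10:67537619-67537868, plus strand: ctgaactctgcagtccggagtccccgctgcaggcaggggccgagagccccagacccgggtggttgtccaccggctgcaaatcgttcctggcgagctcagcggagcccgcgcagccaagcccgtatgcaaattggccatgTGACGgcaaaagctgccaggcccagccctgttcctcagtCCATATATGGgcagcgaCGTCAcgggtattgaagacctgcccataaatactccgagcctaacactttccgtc
Egr4 upstream, chr6:85513590-85513839, minus strand: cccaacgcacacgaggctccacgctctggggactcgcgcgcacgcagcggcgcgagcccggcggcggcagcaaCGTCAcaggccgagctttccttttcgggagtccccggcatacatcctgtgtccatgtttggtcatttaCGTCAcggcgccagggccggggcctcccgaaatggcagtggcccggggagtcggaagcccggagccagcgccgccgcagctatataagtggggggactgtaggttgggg
Nab1 site 1, chr1:52500571-52500599, minus strand: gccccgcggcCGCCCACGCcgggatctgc
Nab1 site 2, chr1:52500539-52500567, minus strand: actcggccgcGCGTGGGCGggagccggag
Nab1 site 3, chr1:52500468-52500496, minus strand: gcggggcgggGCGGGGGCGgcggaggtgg
The 2 upstream stretches are the 250 bases before the start, written 5′ to 3′ on the gene's strand. The Egr2 stretch held a CArG box that began 72 bases before the start, with cores that began 111 and 55 bases before it. RefSeq gives 5 windows for Egr2, and the stretch shown is that at the annotated start of the measured transcript. A window farther upstream held another CArG box and no core, and the farthest upstream held no match. The Egr4 stretch held cores that began 177 and 109 bases before the start. The Nab1 window held 3 Egr sites that began 141, 109 and 38 bases before the RefSeq start, and 1 core that is not printed. That window is 81.7% G and C, as GC-rich as the Egr site letters, and no share was taken over windows of like composition. Its start lies 231 bases from the annotated start of the measured Nab1 transcript. The Nab2 window held none of these letters. Among all 32851 promoter windows of the same length, 5.55% held an Egr site, 1.63% a CArG box, 1.79% the full element and 20.8% a core. Counted over 27025 genes, some with several windows, these shares were 6.27%, 1.81%, 2.03% and 23.0%. A match describes letters only, and no binding was measured in these libraries.

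Deposited values were read as normalized base coverage, a unit that no source states. They were divided here by the inferred read length of 42 bases and called normalized read equivalents. Before normalization the libraries held between 12450701 and 23749087 read equivalents, counted over 1 row per gene. Ptchd1 itself, the check of the labels, lay between 323 and 411 in the wild-type libraries and between 130 and 181 in the mutants. Summed levels of 12 choroid plexus markers ran from 852 to 55762 in wild type against from 1222 to 2904 in the mutants, with wild-type replicates 1 and 3 far above the other 4 libraries. Summed levels of 11 pyramidal neuron markers were 54051 to 56634 in wild type against 60100 to 62933 in the mutants, with positive log2 differences for 7 of the 11. Whether granule neurons also express these markers was not tested. The 11 interneuron markers summed to 15088 to 16402 and 16415 to 18912 (8 positive), and the 10 microglia markers to 6403 to 6639 and 6154 to 6235 (4 positive), so these sums did not overlap either. Those of 10 dentate granule neuron markers were 8908 to 9982 and 8707 to 9969 (3 positive), which overlapped. No marker of these lists was at 0 in all libraries. In whole tissue, fewer cells of a type and less RNA per cell cannot be told apart.

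Egr1, the best-studied member in hippocampus, was the member with the widest difference between genotypes. Its normalized read equivalents were 699, 601 and 741 in the wild-type libraries and 998, 1146 and 1020 in the mutant libraries. The lowest mutant library thus lay above the highest wild-type library. Means were 681 ± 71.98 in wild type against 1055 ± 80.2 in the mutants (SD, n = 3 each), a log2 difference of 0.63 ± 0.09 (SE; 95% interval 0.43 to 0.84). By this size Egr1 stood at rank 99 of 15717 tested genes, counted from the largest positive difference. The log2 difference was 0.60 after correction for GC content and length, and 0.59 without wild-type replicate 2 and mutant replicate 1. These libraries were left out together because their values ran most strongly with GC content, by -0.14 and 0.16 on the log2 scale per 10 percentage points, and the pair was picked from these data. Wild-type replicate 2, the library with the least choroid plexus signal, had the lowest Egr1 value. Without wild-type replicate 1, which had the most, the log2 difference was 0.66. Wild-type replicate 3, also high in that signal at 20797, stayed in. The summed pyramidal neuron markers given above, and by a narrow margin the interneuron markers, were also higher in the mutants without overlap. The microglia markers were lower, and the dentate granule neuron markers overlapped. The part of these markers and of the choroid plexus signal in the Egr1 difference was not tested.

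**Figure D1:**
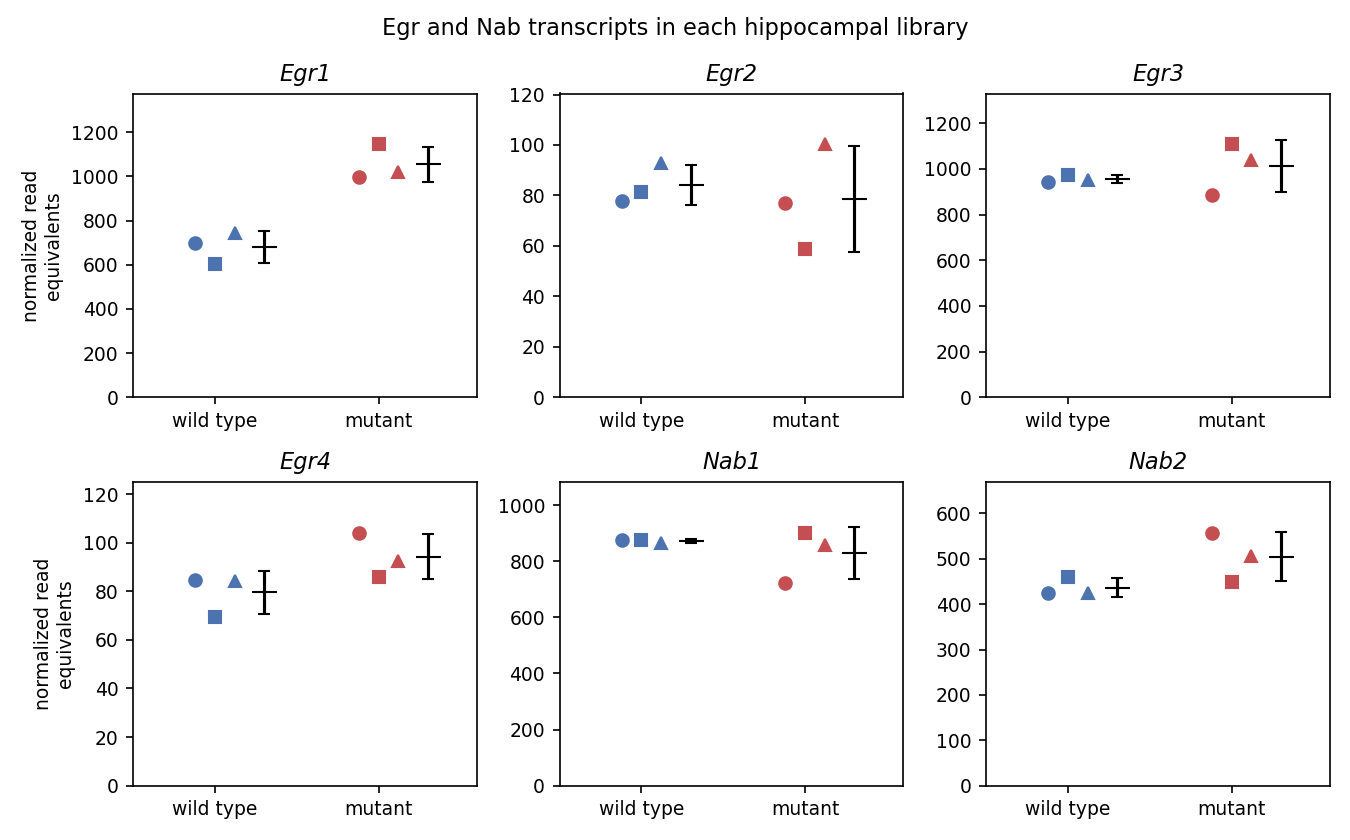
Normalized read equivalents (vertical axes, each from 0) of the 6 genes in each library, with wild type in blue and mutants in red; circles, squares and triangles are replicates 1, 2 and 3, and bars show mean ± SD (n = 3). The groups stay apart for Egr1, from 601 to 741 against 998 to 1146, and for Egr4, and they overlap for the other 4 genes.

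Egr2, best known as the master regulator of Schwann cell myelination and of hindbrain segments, was low. Its values were 77.9, 81.3 and 92.9 in wild type against 76.8, 58.6 and 100 in the mutants. The mutant libraries spanned the whole wild-type range, and mutant replicate 2 was the lowest of all. The log2 difference was -0.13 ± 0.20 (95% interval -0.56 to 0.31), and it rested on that library, since without it the difference was 0.07. Between 55.7 and 107 unnormalized read equivalents stood behind each Egr2 value, the thinnest coverage in the family together with Egr4.

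Egr3, an Egr factor induced by neuronal activity much as Egr1 is, was close to wild-type Egr1 in level per length but not in pattern. Its values were 942, 974 and 952 in wild type against 886, 1109 and 1040 in the mutants. The mutants held both the lowest and the highest library, so the groups overlapped. The log2 difference was 0.08 ± 0.09 (95% interval -0.12 to 0.27). The wild-type libraries differed by little, with a coefficient of variation of 1.70%. The table holds 3 transcript rows for Egr3 that share nearly all coverage, at 942, 942 and 930 in wild-type replicate 1, and they cannot be read as separate isoforms.

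Egr4, an inducible member outside the reach of the Nab proteins, was low. Its values were 84.8, 69.4 and 84.4 in wild type against 104, 86.0 and 92.4 in the mutants. The groups did not overlap, but the lowest mutant library exceeded the highest wild-type library by little. The log2 difference was 0.24 ± 0.15 (95% interval -0.10 to 0.58). It was 0.077 after correction for GC content and length. The Egr4 transcript is 68.2% G and C, above 99.9% of the tested genes with a length. Without wild-type replicate 2 and mutant replicate 1 together, the difference was 0.074.

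Nab1, the corepressor that is present in most tissues, was flat in wild type at 875, 876 and 865, and read 723, 902 and 858 in the mutants. Mutant replicate 1 was low and the other mutant libraries lay around the wild-type level. The log2 difference of -0.08 ± 0.09 (95% interval -0.28 to 0.11) came from that library, and without it the difference was 0.01. The groups overlapped. The 3 Egr sites printed above lie in the promoter window of this gene, and no link between these sites and the Nab1 level was tested.

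Nab2, the corepressor that Egr proteins induce, read 424, 460 and 425 in wild type against 558, 450 and 506 in the mutants. Mutant replicate 1 was the highest, and mutant replicate 2 lay below wild-type replicate 2. The log2 difference was 0.20 ± 0.10 (95% interval -0.01 to 0.42). A GC and length correction left 0.12, for a transcript with 60.1% G and C. Nab2 shares 70 bases at its end with Stat6, a signal transducer gene on the opposite strand, and the libraries keep strand but the sources do not say whether counting used it. Stat6 averaged 159 ± 23.7 in wild type against 145 ± 12.03 in the mutants (SD, n = 3 each). Reads from those 70 bases may be credited to either gene.

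The long and short Nab2 transcripts differ by 271 bases, of which 192 are the coding bases of exon 6 and most others lie at the start of exon 1 (exons numbered from the 5′ end of the GENCODE M21 transcript). Coverage of the stretch that only the long form holds came to 43.4, 46.0 and 36.0 read equivalents in wild type against 43.4, 58.2 and 57.0 in the mutants. Per kilobase this stretch averaged 154 in wild type and the bases of the short form 171. In the mutants both averaged 195. Single libraries departed from this in both directions, with 160 against 223 in mutant replicate 1, 215 against 169 in mutant replicate 2 and 133 against 168 in wild-type replicate 3.

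No member passed the adjusted threshold of 0.05 in limma's moderated test with Benjamini-Hochberg adjustment over all tested genes (0 of 6), where 0.00636% of the 15717 tested genes did. At an unadjusted p under 0.05 limma called 1 of 6, Egr1, against 18.7% of tested genes. The authors' deposited p-values, adjusted over the same genes, called 1 of 6, again Egr1, against 7.80% of tested genes. Egr1 and Egr4 were the 2 of 6 members whose mutant libraries all lay above the wild-type libraries, as did 12.3% of tested genes. Log2 differences were positive for 4 of 6 members with a median of 0.14, while the median over all tested genes was -0.02 and 46.8% were positive. As the contrast served to choose the family, nothing is read from these counts.

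**Figure D2:**
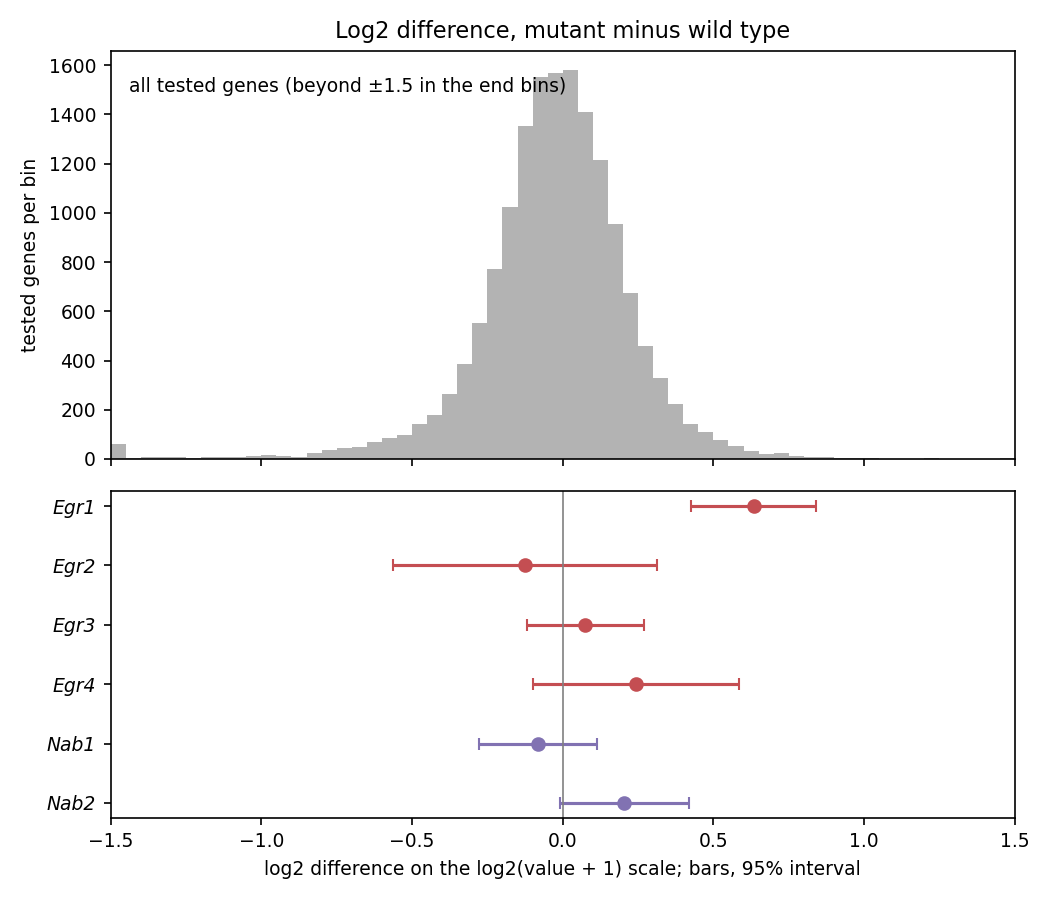
Log2 difference, mutant minus wild type: above, a histogram of all 15717 tested genes; below, each member with its 95% interval from limma (Egr genes red, Nab genes violet). Egr1 at 0.63 lies far in the upper tail, and the intervals of the other 5 members include 0.

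Levels can be set side by side per length of transcript. In wild type Egr3 stood highest at 243 ± 4.12 normalized read equivalents per kilobase (SD, n = 3 here and below), followed by Nab1 at 225 ± 1.62, Egr1 at 224 ± 23.7 and Nab2 at 169 ± 7.91. Egr4 at 37.0 ± 4.08 and Egr2 at 28.4 ± 2.66 formed a low pair. Egr1, which ran from 198 to 244 per kilobase, overlapped both Egr3 and Nab1, whereas Egr3 did not overlap Nab1, Nab2 lay below Egr3, Nab1 and Egr1 in every library, and Egr4 did not overlap Egr2. In the mutants Egr1 stood first at 347 ± 26.4 per kilobase and its lowest library at 329 lay above the highest Egr3 library at 281. Egr3 at 257 ± 29.0, Nab1 at 214 ± 24.0 and Nab2 at 195 ± 21.0 followed, and neighbours among these 3 overlapped. Egr4 at 43.8 ± 4.29 and Egr2 at 26.5 ± 7.06 stayed last and did not overlap each other. Among 15449 tested genes with a length, 71.3% had a lower level per kilobase than Egr1 over the 6 libraries, and 19.0% a lower level than Egr2. Lengths were those of the longest GRCm38 transcript matched to a gene, from 2148 bases for Egr4 to 3940 for Egr3.

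**Figure D3:**
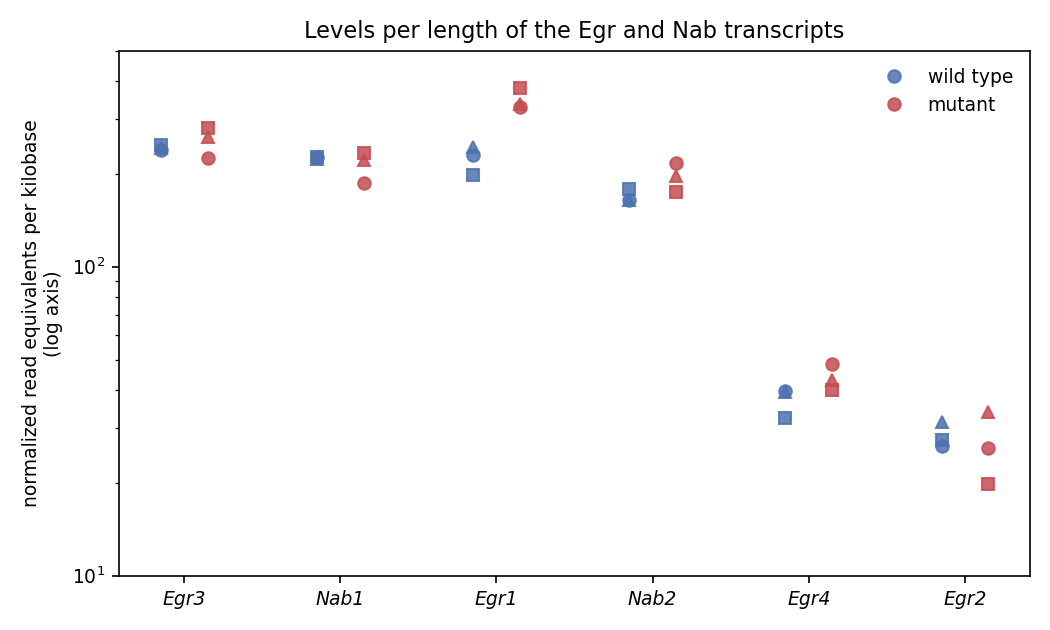
Normalized read equivalents per kilobase (logarithmic vertical axis) of each member in each library, ordered by the wild-type mean; wild type in blue, mutants in red, marker shapes as replicates 1 to 3. Egr3, Nab1, Egr1 and Nab2 lie between 164 and 378 and Egr4 and Egr2 between 19.8 and 48.5.

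Ratios within a library do not depend on its overall scaling. Egr1 supplied 42.05% ± 2.49 of the summed Egr level per kilobase in wild type against 51.5% ± 1.61 in the mutants. The Nab2 to Egr1 ratio per kilobase was 0.713, 0.8998 and 0.674 in the wild-type libraries and 0.657, 0.461 and 0.584 in the mutants. These groups did not overlap, but mutant replicate 1 lay just under wild-type replicate 3. The Nab1 to Egr1 ratio was 1.01 ± 0.117 in wild type against 0.615 ± 0.0457 in the mutants, and that of Egr3 to Egr1 was 1.09 ± 0.137 and 0.738 ± 0.0509. Neither of these ratios overlapped between genotypes, while the levels of Nab1 and Egr3 themselves did. The Nab2 to Nab1 ratio overlapped, at 0.751 ± 0.0326 and 0.930 ± 0.208. Both Nab genes summed over the 4 Egr genes summed gave 0.742 ± 0.0531 and 0.608 ± 0.0386, without overlap. Every ratio or share given here that did not overlap holds Egr1, and only the Nab2 to Nab1 ratio does not. Egr1 was already known to differ, so nothing further is read from the separation of these ratios.

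Genes with a profile over the 6 libraries most like that of Egr1 were sought by the root mean square difference of centred log2 values among 13144 other genes with a mean of at least 50. The nearest was Zfp385a, a zinc finger gene, at a difference of 0.08, with 124, 105 and 136.8 in wild type against 181, 178 and 174 in the mutants. Grip2, a scaffold protein of AMPA receptors, followed at 0.10 and Nova2, a neuronal splicing factor, at 0.11. Lgi2 and a row named only by its identifier, whose values follow those of Lgi2 closely, were next at 0.11 each. Egr1 was already known to differ between genotypes, so genes near its profile differ in the same direction by the choice. By correlation in place of root mean square difference, 0 of these 5 were kept. Likeness of pattern says nothing about function. None of these 5 is an Egr or Nab gene. The closest member to Egr1 was Egr4, at place 879, and the farthest was Egr2, at place 11618. Nearest to Egr2 were Exosc5, Nsun3 and Mcrs1 at 0.08 to 0.10. Nearest to Egr3 were Mcph1, Tmem184c and Pole3 at 0.02 to 0.03, and nearest to Egr4 were Nckipsd, Il17ra and Zfpl1 at 0.02 to 0.03. Nearest to Nab1 were Mlh3, Tax1bp1 and Ano3 at 0.02, and nearest to Nab2 were Sox8, Vipr1 and Wdr55 at 0.04.

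Genes that act around the family are described by counts, and none of any list passed limma's adjusted threshold, as 0 genes higher and only Ptchd1 lower did among all tested genes. Of the 24 measured genes of the ERK, SRF and CREB pathways upstream of Egr transcription, 7 were higher and 2 lower in the mutants at an unadjusted p under 0.05 in limma, where 9.01% of all tested genes were higher and 9.70% lower. The authors' p-values, adjusted here over the tested genes, called 6 higher and 2 lower, against 4.57% and 3.23% of tested genes. The median log2 difference was 0.09 beside -0.02 over all tested genes. Crebbp, the acetyltransferase that binds CREB, read 2854, 2432 and 2381 in wild type against 3602, 3384 and 2884 in the mutants, a log2 difference of 0.36 ± 0.10 (limma adjusted p = 0.125). Mkl1, an actin-sensing partner of SRF, averaged 515 ± 67.0 and 661 ± 36.1. Crtc1, a coactivator of CREB, averaged 1185 ± 129 and 1475 ± 103. Map2k1, the kinase that phosphorylates ERK, averaged 5022 ± 351 and 4324 ± 141. The 4 genes had an adjusted p of 0.125 to 0.148 in limma.

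Of 25 genes reported in other studies as targets of Egr factors, 23 were tested. At an unadjusted p under 0.05 in limma 6 were higher and 2 lower, beside 9.01% and 9.70% of all tested genes. The authors' p-values, adjusted here, called 3 higher and 0 lower, beside 4.57% and 3.23% of all tested genes. The median log2 difference was 0.07, and 0.017 after GC and length correction. The list does not separate genes reported as raised by Egr factors from genes reported as lowered. Neither the median nor the direction of a single gene can therefore be set against that of Egr1. Dlg4, the postsynaptic scaffold PSD-95, averaged 6047 ± 241 in wild type against 7687 ± 525 in the mutants, a log2 difference of 0.34 ± 0.07 (limma adjusted p = 0.109). Syn1, a synaptic vesicle protein, read 2045, 1755 and 2124 in wild type against 3205, 2670 and 2505 in the mutants, a log2 difference of 0.50 ± 0.10 (limma adjusted p = 0.109). Both are neuronal genes. The summed markers of pyramidal neurons given above, and by a narrow margin those of interneurons, were higher in the mutants. Those of dentate granule neurons overlapped. The part of these cell types in the differences of Dlg4 and Syn1 was not tested. Fn1, a matrix protein, averaged 777 ± 147 and 1003 ± 85.2. Tgfb1, a growth factor, was barely covered, at 8.26 ± 2.16 and 16.9 ± 2.83. No test was made of whether these genes follow Egr1.

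Of 11 genes that Egr2 is known to switch on in Schwann cell myelin, 10 were tested, 3 of them with positive differences and with a median of -0.11. At an unadjusted p under 0.05 limma called 0 higher and 1 lower, Cnp, beside 9.01% and 9.70% of all tested genes. The authors' p-values, adjusted here, also called Cnp alone, beside 4.57% of all tested genes higher and 3.23% lower. Cnp, a myelin enzyme, averaged 4980 ± 197 and 4114 ± 748. Mal, a membrane protein of myelin, averaged 5510 ± 612 and 5039 ± 442, and Mag, an adhesion protein of myelin, 2491 ± 317 and 2266 ± 187. In brain these genes mark oligodendrocytes, and the summed oligodendrocyte markers, which share several genes with the list, were 77377 to 89190 in wild type against 64166 to 81102 in the mutants. Their part was not tested.

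All 13 listed NuRD subunits, through which Nab proteins repress, were tested. At an unadjusted p under 0.05 in limma 4 were higher and 2 lower, beside 9.01% and 9.70% of all tested genes. The authors' p-values, adjusted here, also called 4 higher and 2 lower, beside 4.57% and 3.23% of all tested genes. The median log2 difference was 0.09, and 0.02 after GC and length correction. Gatad2b, a linker subunit, read 398, 435 and 362 in wild type against 590, 623 and 490 in the mutants, a log2 difference of 0.51 ± 0.11 (limma adjusted p = 0.109). Mta3 averaged 774 ± 35.4 and 977 ± 122, and Mta1 459 ± 35.5 and 586 ± 72.04; both are metastasis-associated subunits that hold the deacetylases. Rbbp4, a histone chaperone subunit, averaged 1697 ± 94.1 and 1447 ± 51.6. Of 9 tested zinc finger genes whose proteins bind similar GC-rich sites, limma called 3 higher and 1 lower at an unadjusted p under 0.05. The authors' p-values, adjusted here, called 0. Both stand beside the shares of all tested genes given for the NuRD subunits. Maz averaged 1058 ± 37.4 and 1227 ± 91.7, Klf13 averaged 2024 ± 188 and 2325 ± 9.35, Sp3 averaged 2599 ± 84.1 and 2322 ± 172, and Sp2 averaged 76.6 ± 16.9 and 101 ± 7.57. The median of this list was 0.14, and 0.07 after GC and length correction.

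The 45 other immediate early genes had a median log2 difference of 0.01, with 24 positive. It was 0.15 without wild-type replicate 1 and -0.08 without wild-type replicate 2, so single libraries set its sign. At an unadjusted p under 0.05 limma called 6 higher and 4 lower of the 45. The authors' p-values, adjusted here, called 4 higher and 2 lower. Both stand beside the shares of all tested genes given for the upstream list. Groups did not overlap for 6 higher and 3 lower genes of the 45, beside 24.3% of all tested genes in either direction. Npas4, an activity-dependent neuronal factor, read 144, 184 and 156 in wild type against 230, 237 and 236 in the mutants, a log2 difference of 0.54 ± 0.12 (limma adjusted p = 0.109). Nr4a2, an orphan nuclear receptor, read 962, 824 and 1034 in wild type against 1681, 1280 and 1167 in the mutants. Per1, a clock gene that also responds to activity, read 694, 506 and 635 in wild type against 815, 764 and 791 in the mutants. Dusp6, a phosphatase that restrains ERK, read 1420, 1505 and 1514 in the wild-type libraries and 1118, 1217 and 1273 in the mutant ones. These 4 genes have the smallest p of the list, so separate groups follow from the choice.

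**Figure D4:**
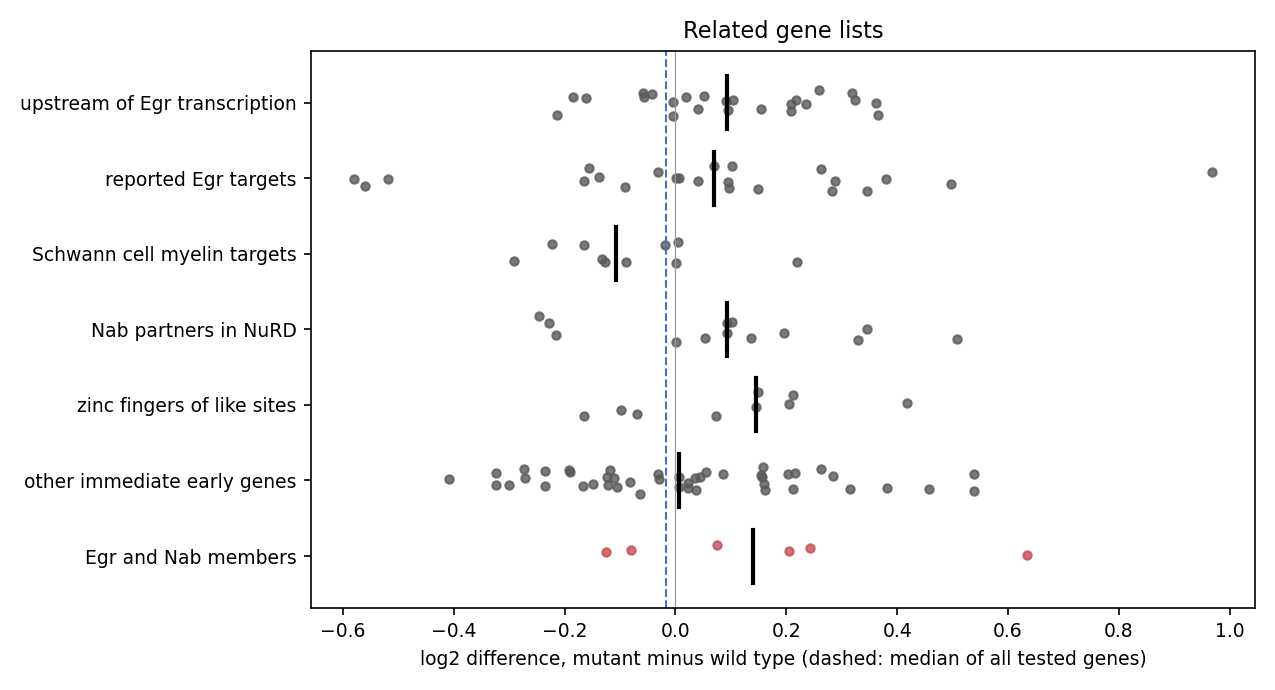
Log2 difference, mutant minus wild type, of each tested gene in 6 related lists and of the 6 members (points, spread vertically for legibility); black bars are medians and the dashed line is the median of all tested genes. Medians run from -0.11 for the Schwann cell myelin list to 0.14 for the zinc fingers.

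In the authors' deposited motif table for genes higher in the mutants, motifs called Egr-1, Egr-2, Egr-3 and Egr1 rest on 0 to 3 genes in all, and 1 of these, under Egr-2, was in the list of 1151. In the authors' deposited motif table for genes lower in the mutants, the same motifs had 0 genes in the list of 885. With so few genes assigned, these entries carry no measure of enrichment for Egr sites. Egr1 itself is listed under 12 of 481 motifs in the authors' deposited table for higher genes, with fold enrichments from 1.09 to 1.59. The authors' deposited corrected value was under 0.05 for 5 of these, namely HNF4, ETS2, PPARG, Stat3 and AML1. SRF, Elk-1 and CREB, ATF were also listed for Egr1, with fold enrichments of 1.41, 1.57 and 1.504 in the authors' deposited table and corrected values above 1. Egr1 is in the genes of 19 of 78 binding and chromatin sets, and 337 of 7551 ontology terms, in the authors' deposited tables for higher genes. The authors' corrected value was under 0.05 for 16 of these sets and 164 of these terms. The set at the top, H3K4me3 in adipose progenitors, holds 986 of the 1151 higher genes, so such a listing says little about Egr1. The authors' deposited cell type table lists Egr1 under ependymal cells, where it lists 3 genes in all. The 10 ependymal markers (1 positive) summed to 400 to 842 in wild type against 290 to 398 in the mutants, a gap of few read equivalents, with wild-type replicate 1 the highest.

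**Figure D5:**
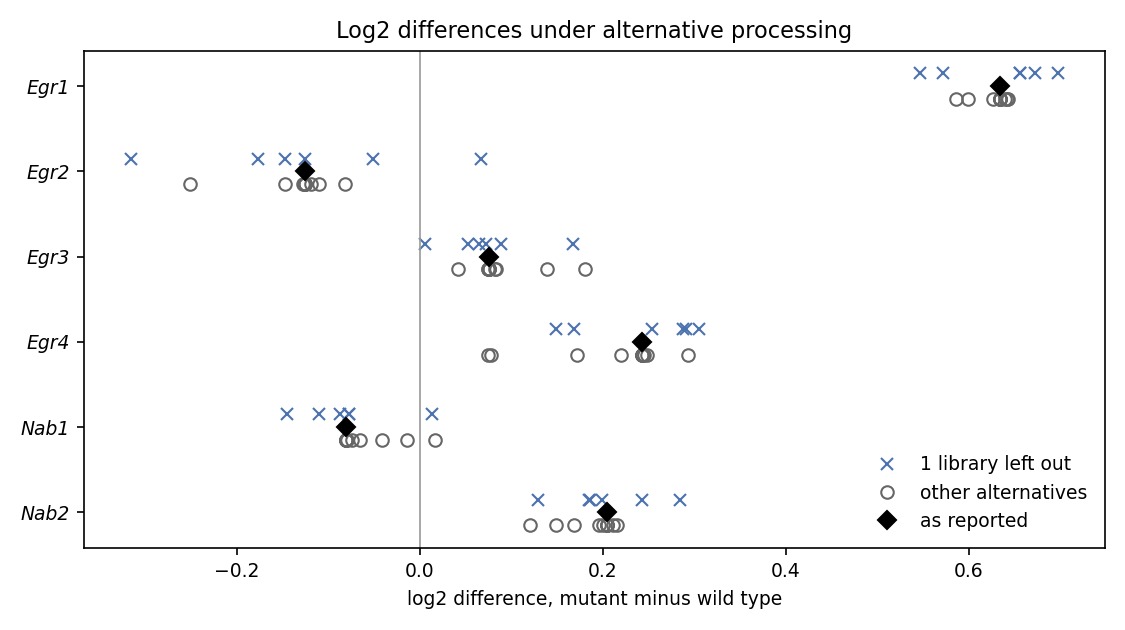
Log2 difference of each member, mutant minus wild type, as reported (diamonds), with 1 library left out (crosses) and under other processing alternatives (circles). Egr1 stays between 0.55 and 0.70, while Egr2 and Nab1 cross 0 when a single mutant library is left out.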

How the data were processed

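RNA from whole hippocampus was sequenced from 3 wild-type and 3 PTCHD1 mutant libraries, grouped by the genotype label. Ribosomal RNA was removed from 2000 ng of RNA and strand-specific libraries were sequenced single-end, 4 to a lane, per the labels' protocols. Per the submitters' processing notes, GSNAP, mm9 and DESeq2 were used; their versions were not given in sources used here. The authors' deposited table holds normalized coverage (signal) for 35477 transcript rows, and no source states that unit: every value is a whole multiple (tolerance 0.01) of a library's step, with multiples piling up at 42, 84 and 126, so values were divided by 42. It also holds the authors' p-value per transcript. The authors' ontology, motif and binding tables carry a fold (ratio) per entry with a p-value corrected by the authors. In the motif tables that deposited value often exceeds 1 and was read as a score. All per-sample columns were used.

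Genes with a mean of at least 10 were tested on log2(value + 1), which understates changes of low genes, with limma 3.58.1 in R 4.3.3 (mean-variance trend, two-sided, Benjamini-Hochberg over 15717 genes, threshold 0.05). No count model was run on coverage. The test was tested on simulated data first. An exact permutation test of 3 against 3 libraries cannot give a p below 0.1. Transcript lengths and GC content came from GENCODE M21 (GRCm38) for 98.3% of tested genes, taking the longest transcript matched to a gene, since 1 Egr3 identifier matched a shortened one; promoters came from RefSeq. Named genes were the members, up to 4 genes of each list with the smallest p, the 5 genes nearest to Egr1, the 3 nearest to each other member, Ptchd1, and table entries named for the family. Not every gene that this rule selects is reported here. The members, lists and markers were chosen with earlier results of these data known. Alternatives covered pseudocounts, filters, scaling, variance models, a GC and length correction (splines of 5 degrees of freedom), omitted libraries, summed rows and the authors' p-values.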

Additional observations from a re-analysis of the deposited data

How the results depend on the processing

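Egr1 kept its direction in all 17 alternatives that gave a log2 difference, from 0.55 to 0.70. Egr3 (0.01 to 0.18), Egr4 (0.07 to 0.31) and Nab2 (0.12 to 0.28) also stayed positive, whereas Egr2 ran from -0.32 to 0.07 and Nab1 from -0.15 to 0.02. With 1 library left out, the log2 difference ran from 0.55 to 0.70 for Egr1 and from 0.15 to 0.31 for Egr4. Egr4 moved to 0.077 with the GC and length correction and to 0.074 without wild-type replicate 2 and mutant replicate 1. The members past the adjusted threshold were 0, but 1 (Egr1) with library quality weights (adjusted p = 0.0171), without wild-type replicate 2 and mutant replicate 1 (adjusted p = 0.00475) and by the authors' p-values; limma's adjusted p for Egr1 ran from 0.0507 to 0.371 with 1 library left out, where 0 members passed. The genes past the threshold numbered 1, and 0 without a filter, with quantile normalization, without the variance trend and with rows summed, 3 with the GC and length correction, 110 without wild-type replicate 2 and mutant replicate 1, 805 with quality weights and 1226 by the authors' p-values; with 1 library left out they numbered 0 to 44. The log2 ratio of Nab2 to Egr1 differed between genotypes by -0.54 to -0.29 with 1 library left out. List medians ran from 0.05 to 0.14 for the upstream genes, 0.02 to 0.08 for reported Egr targets, -0.16 to -0.06 for Schwann cell myelin, 0.02 to 0.14 for NuRD, 0.07 to 0.18 for zinc fingers and -0.08 to 0.15 for other immediate early genes. Of the 5 genes nearest to Egr1, 3 were kept with a minimum mean of 200, which removes Zfp385a and Grip2 by their level alone. By correlation in place of root mean square difference 0 were kept. The cause of the other shifts in this section was not tested. No paired analysis was possible because the replicate numbers follow accession order and the titles carry no shared number. Coverage limits Egr2 and Egr4 most.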
